A study of Homo sapiens with 20 samples.

Results

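The transcriptional response of A549 cells to *ADAR* KO in the absence of added interferon was measured in 4 of the 20 RNA-seq libraries of the series. All vehicle-treated A549 libraries were taken: 2 with an sgRNA against *ADAR* (ADAR sg1 and ADAR sg2) and 2 with a control sgRNA against *GFP* (GFP sg1 and GFP sg2), a sequence foreign to human cells. A549 is a human lung adenocarcinoma line. In every group the cells carried Cas9 and 1 sgRNA from a lentiviral vector, were drug-selected (the methods name puromycin and/or blasticidin, for a minimum of days before use), and received vehicle (sterile water) for 24 h. The 4 other A549 libraries carried the same 4 sgRNAs and received 10 ng/mL IFN-β for 24 h, and the remaining 12 libraries came from HCC366, NCI-H196 and NCI-H1650, untreated lung cancer lines that depend on ADAR1. The comparison addresses what loss of *ADAR* does to the transcripts of a line that tolerates it. The cells were selected populations, cloning is not described, and the exact time between transduction of A549 and harvest is not given. The 2 libraries of a group differ in the sgRNA and are not stated to come from separate experiments. P values between targets therefore measure the spread between sgRNA libraries. Those fits did not pair the vehicle and IFN-β libraries of a line. P values between 2 sgRNAs of a target measure the spread within lines, each with 1 vehicle and 1 IFN-β library.

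ADAR1, the product of *ADAR*, converts adenosine to inosine in double-stranded RNA, mostly in inverted repeats within untranslated regions and introns. Without this editing, endogenous double-stranded RNA can be recognized by MDA5, which signals through MAVS to type I interferon, by PKR, which phosphorylates eIF2α and thereby raises ATF4, and by the OAS proteins, which activate RNase L. ADAR1 itself has a constitutive short isoform and an interferon-inducible long isoform, and several of the sensors are interferon-stimulated genes too.

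The 4 vehicle libraries held 7381566 (GFP sg1), 14513579 (GFP sg2), 8193589 (ADAR sg1) and 9732942 (ADAR sg2) reads on genes, so that 1 read was worth between 0.0689 and 0.1355 CPM before TMM scaling. Unless stated otherwise, CPM are the count scaled to the size of the library by TMM. Each pair of libraries differed by more than counting noise would give (chi-square over its degrees of freedom, 4.61 for *GFP* and 5.34 for *ADAR*). All 10 markers of A549 examined, among them the keratins *KRT8* and *KRT18* and the NRF2 targets *AKR1B10* and *NQO1*, were expressed. Of 3 genes of chromosome 9 listed as lost in A549, *CDKN2A* and *CDKN2B* had 0 reads in all 4 libraries, but *MTAP* had 25 and 67 reads in the *GFP* and 21 and 26 in the *ADAR* libraries. Reads of *MTAP* were thus not absent, and copy number was not examined. Of markers of blood and stroma, 2 of the 9 matched passed the filter on low counts (*COL1A1* and *ACTA2*), as did 3 of 9 neuroendocrine and squamous markers, and none of these 5 passed the test between targets.

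*ADAR* mRNA was reduced in both knockout lines but not absent. It stood at 436 CPM in GFP sg1, 437 in GFP sg2, 161 in ADAR sg1 and 250 in ADAR sg2. The control libraries were nearly equal, while ADAR sg1 held less *ADAR* mRNA than ADAR sg2. The fall was 1.08 on the log2 scale (log2 fold change −1.08 ± 0.13 SE, n = 2 and 2 libraries; quasi-likelihood test of edgeR, p adjusted after Benjamini and Hochberg = 9.98e-05), and the difference between the *ADAR* sgRNAs, fitted over the vehicle and IFN-β libraries, was −0.50 ± 0.12 (edgeR adjusted p = 0.025). Counts over the whole gene (chromosome 1, 154554171 to 154600489, minus strand, GRCh37) include transcripts with small insertions or deletions at the cut, so mRNA does not give the protein left. DESeq2 also estimated −1.08, at an adjusted p of 0.129. Among other adenosine deaminases, *ADARB1*, which encodes ADAR2, had 34.7, 30.6, 35.6 and 26.7 CPM in the same order of libraries (log2 fold change −0.06 ± 0.15, edgeR adjusted p = 0.998). *ADARB2*, *ADAD1* and *ADAD2* had 0 reads in all 4 libraries, which allows up to 0.0753 CPM (before TMM scaling) over the libraries together, by counting error alone.

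Few genes changed beyond the spread between sgRNAs. Of 15449 genes tested, 19 passed an edgeR adjusted p of 0.05 (0.123%), of which 14 fell, *ADAR* among them (0.0906% of genes tested), and 5 rose (0.0324%). At an unadjusted p under 0.05 there were 642 genes (4.16%). In each of the 19 genes the *ADAR* and *GFP* libraries did not overlap, as was the case for 36.6% of all genes tested. All 14 genes that fell are protein-coding, but the share of protein-coding genes among all genes tested was not counted. Of the 5 that rose, 2 are the mitochondrial ribosomal RNAs and 2 have no symbol in the annotation at hand. The count depended on the libraries: without GFP sg2, 3 genes passed (*ADAR*, *MT-RNR1* and *WWC3*), without ADAR sg2, 7 genes passed, without ADAR sg1, 12 genes passed, and without GFP sg1, 17 genes passed.

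**Figure D1:**
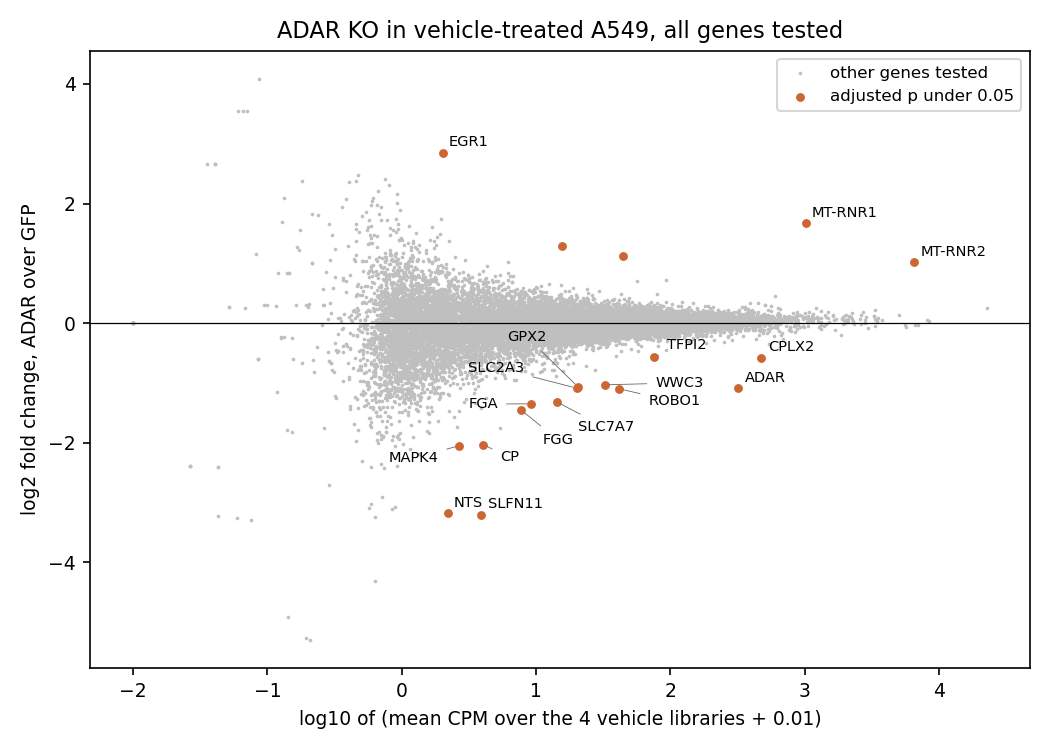
Each point is a gene of the fit, with the log10 mean CPM over the 4 vehicle libraries on the x axis and the log2 fold change of *ADAR* over *GFP* on the y axis. Orange points are the 19 genes past an adjusted p of 0.05. Most genes lie close to 0, and 14 of the 19 orange points lie below it. The 2 orange points without a name are the identifiers without a symbol, and points left of −1 rest on a few reads.

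Some of the genes that fell encode secreted proteins typical of liver. *FGA* and *FGG* encode the alpha and gamma chains of fibrinogen, which with the beta chain from *FGB* form the clotting protein, and the 3 genes lie side by side on chromosome 4. *FGA* (155504278 to 155511894, minus strand, GRCh37) had 10.2 CPM in GFP sg1, 16 in GFP sg2, 5.61 in ADAR sg1 and 4.88 in ADAR sg2 (log2 fold change −1.35 ± 0.28, edgeR adjusted p = 0.0407). *FGG* (155525286 to 155534119, minus strand) had 9.90, 12.8, 4.76 and 3.66 CPM (−1.46 ± 0.27, edgeR adjusted p = 0.0116). In both genes the 2 knockout libraries lay close together and below either control. *FGB* had 3.17, 5.78, 2.93 and 3.25 CPM, with a log2 fold change of −0.59 that did not pass (unadjusted p = 0.108, edgeR adjusted p = 0.998). The groups overlapped for *FGB*, since ADAR sg2 lay above GFP sg1.

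The windows from 250 bases before to 50 bases after the annotated start of these 3 genes are shown because the genes are neighbours and *FGB* did not pass the test while the other two did. They are from RefSeq, GRCh38.p14, 5′ to 3′ on the strand of the gene: chr4:154590693-154590992 on the minus strand for *FGA*, chr4:154562730-154563029 on the plus strand for *FGB* (the first of 2 windows listed), and chr4:154612607-154612906 on the minus strand for *FGG*. Capitals mark matches on either strand to GTTAAT, a core of the binding motif of the liver factor HNF1, and to TTGCNNAA, a core of the motif of C/EBP factors. No match to one overlapped a match to the other.
FGA: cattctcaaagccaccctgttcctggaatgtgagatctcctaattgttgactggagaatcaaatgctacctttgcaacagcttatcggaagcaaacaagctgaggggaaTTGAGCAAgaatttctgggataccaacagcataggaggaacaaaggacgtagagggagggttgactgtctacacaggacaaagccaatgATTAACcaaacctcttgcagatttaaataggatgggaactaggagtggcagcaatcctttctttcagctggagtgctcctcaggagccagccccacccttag
FGB: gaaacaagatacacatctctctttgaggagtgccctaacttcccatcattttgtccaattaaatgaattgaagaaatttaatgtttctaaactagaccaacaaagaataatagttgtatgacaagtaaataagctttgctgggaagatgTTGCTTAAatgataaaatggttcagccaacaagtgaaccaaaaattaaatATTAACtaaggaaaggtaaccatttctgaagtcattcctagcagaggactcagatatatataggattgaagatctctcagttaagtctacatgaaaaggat
FGG: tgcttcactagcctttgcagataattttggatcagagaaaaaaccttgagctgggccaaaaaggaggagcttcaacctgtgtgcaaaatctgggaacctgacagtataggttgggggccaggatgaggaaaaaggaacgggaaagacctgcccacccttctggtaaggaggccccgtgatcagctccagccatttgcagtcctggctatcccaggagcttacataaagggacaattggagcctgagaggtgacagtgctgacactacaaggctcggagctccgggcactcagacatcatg
*FGA* and *FGB* had 1 match to each motif, and *FGG* had 0 matches to either. The HNF1 letters began 52 bases before the start of *FGA* and 51 bases before that of *FGB*, and the C/EBP letters began 141 and 101 bases before. Of 35114 windows of this length in the table, 6.88% held the HNF1 letters and 10.5% the C/EBP letters. A match is a description of the letters and not of binding.

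*CP* encodes ceruloplasmin, the copper-carrying ferroxidase of plasma. It had 5.15 and 7.77 CPM in the *GFP* libraries and 1.83 and 1.42 in the *ADAR* libraries (log2 fold change −2.03 ± 0.35, edgeR adjusted p = 0.00893). *CP* overlaps *HPS3* on the opposite strand, with 185 reads for *CP* and 1849 for *HPS3* over the 4 libraries, and the strand setting of the counting is not stated. Of 12 acute-phase and liver-type secreted genes listed, 6 passed the filter, all 6 had a negative log2 fold change, and 2 passed the test (*FGA* and *FGG*), where 0.0906% of all genes tested passed lower. The median log2 fold change of the 6 was −1.40, against 0.00 over all genes tested. This median lies between the values of *FGA* and *FGG*, which the same contrast chose, so it is not independent of that choice. With IFN-β the median of the list was −0.61, and 3 members passed lower and 1 higher. *SERPINA1*, encoding the protease inhibitor alpha-1 antitrypsin, had 5 and 26 reads in the *GFP* libraries and 0 and 1 in the *ADAR* libraries (edgeR adjusted p = 0.232), and *C3*, encoding complement C3, differed little at 87.6, 93.4, 92.9 and 82.3 CPM (−0.05). *C3* was the member with the most reads, and the 6 genes removed by the filter had at most 2 reads in any vehicle library.

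Another pair of secreted products fell. *NTS* encodes the peptide neurotensin. It was found in 21 and 77 reads of the *GFP* libraries and in 3 and 5 reads of the *ADAR* libraries, that is 2.77, 5.11, 0.366 and 0.509 CPM, and with *SLFN11* it had the largest falls among the genes that passed (log2 fold change −3.18 ± 0.56, edgeR adjusted p = 0.00893). *TFPI2*, a secreted Kunitz-type protease inhibitor, had the smallest, with 84.5, 95.9, 61.2 and 60.9 CPM (−0.57 ± 0.12, edgeR adjusted p = 0.0284). Its 2 knockout libraries were almost equal.

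Transporters and a redox enzyme formed a further group. *SLC2A3*, encoding the glucose transporter GLUT3, had 21.0 and 33.5 CPM in the *GFP* libraries and 11.5 and 14.5 in the *ADAR* libraries (−1.09 ± 0.19, edgeR adjusted p = 0.00893). It was the only one of 16 hypoxia and glycolysis genes that passed: *SLC2A1*, encoding GLUT1, had a log2 fold change of 0.05, and the median of the list was 0.07. *SLC7A7*, encoding the light chain of a cationic amino acid exporter, had 13.9, 26.4, 10.7 and 6.0 CPM (−1.32 ± 0.27, edgeR adjusted p = 0.0284). *GPX2*, a selenium-dependent glutathione peroxidase, had 21.1, 34.5, 13.5 and 13.4 CPM (−1.07 ± 0.22, edgeR adjusted p = 0.0284). In each of the 3 genes GFP sg2 was the highest library, and the distance between the controls was larger than that between GFP sg1 and the nearer knockout library. *GPX2* overlaps *CHURC1* on the opposite strand (923 and 710 reads). Of 17 NRF2 targets, a group to which *GPX2* is also known to belong but which was listed without it, none passed by edgeR (0 at an unadjusted p under 0.05), and their log2 fold changes ranged from −0.18 to 0.14.

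The other genes that fell encode proteins of unlike function and were not tested as a group. *WWC3*, a relative of the Hippo pathway scaffold KIBRA, had 46.8 and 40.8 CPM in the *GFP* libraries and 25.4 and 17.6 in the *ADAR* libraries (−1.03 ± 0.17, edgeR adjusted p = 0.00444). DESeq2 called it lower too, with *CP* and *SLC2A3*, and it passed without GFP sg2 but not without ADAR sg2. *ROBO1*, a receptor for SLIT guidance cues, had 41.8, 70.7, 31.8 and 21.9 CPM (−1.10 ± 0.20, edgeR adjusted p = 0.00893). *MAPK4*, an atypical MAP kinase, had 3.30, 5.25, 1.34 and 0.814 CPM (−2.05 ± 0.42, edgeR adjusted p = 0.0284). *CPLX2*, encoding complexin 2, a regulator of vesicle fusion, had 548, 594, 330 and 435 CPM, so that a well-covered gene fell by 0.58 on the log2 scale (log2 fold change −0.58 ± 0.12, edgeR adjusted p = 0.0281).

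*SLFN11*, a nuclear helicase-like protein that blocks stressed replication forks and is itself interferon-inducible in many cells, had 4.35 CPM in GFP sg1, 9.63 in GFP sg2, 1.46 in ADAR sg1 and 0.203 in ADAR sg2 (log2 fold change −3.20 ± 0.61, edgeR adjusted p = 0.0172). Its level differed from library to library in both groups. The *ADAR* sgRNAs differed by 2.62 ± 0.52 on the log2 scale over the vehicle and IFN-β libraries (edgeR adjusted p = 0.00176), with ADAR sg2 the lower, and GFP sg2 was above GFP sg1 by 1.19 ± 0.29 (edgeR adjusted p = 0.0992).

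**Figure D2:**
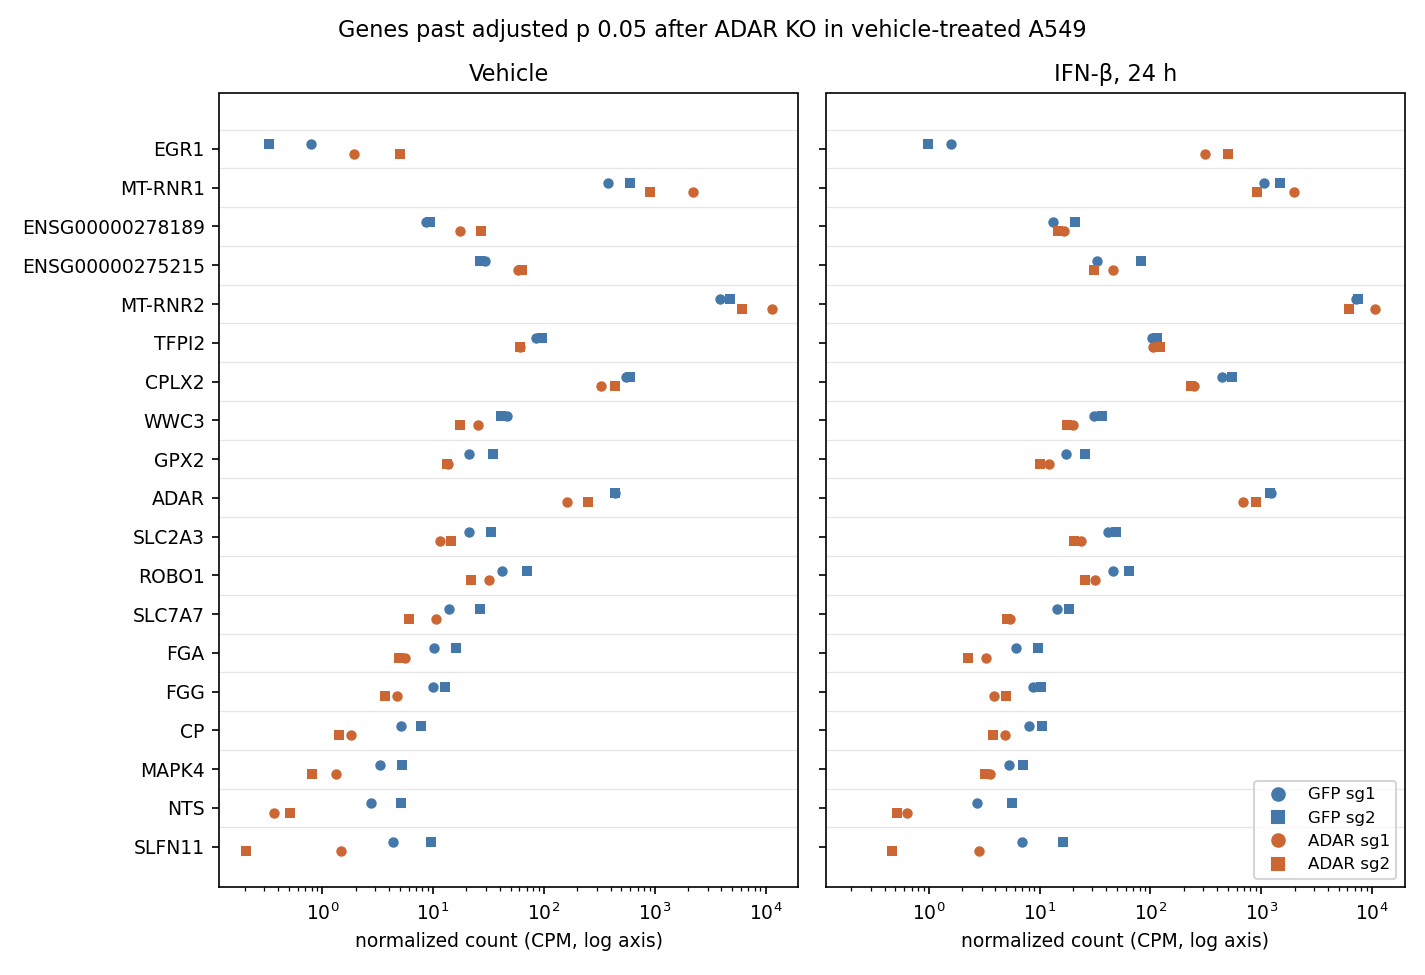
Normalized counts (CPM, log axis) of the 19 genes in each A549 library, vehicle on the left and IFN-β on the right, where blue is *GFP*, orange is *ADAR*, circles are sg1 and squares are sg2, and genes are ordered by their log2 fold change in vehicle. In vehicle the colours do not overlap in any row, and with IFN-β the colours stay apart in the rows of the genes that fell except *TFPI2*.

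The controls themselves were not alike in the genes that fell. Of these 14 genes, 13 were higher in GFP sg2 than in GFP sg1 in vehicle, and 13 were in IFN-β, against 50.1% of all genes tested in vehicle. None passed the test between the *GFP* sgRNAs by edgeR's quasi-likelihood test, which 0.0259% of all genes passed, and 8 had an unadjusted p under 0.05, as did 4.07% of all genes. No other tool was run on this contrast. The median difference was 0.51 on the log2 scale, against −0.00 for all genes. With GFP sg1 alone as the control, the log2 difference ranged from −0.47 to −2.54 over the 14 genes. Its direction is fixed by the choice of genes whose libraries did not overlap, and the comparison was made after the values had been seen. Whether a gene differs through the loss of *ADAR* or through the history of a transduced population cannot be told apart with 2 sgRNAs per target.

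Among the genes that rose, *EGR1*, an immediate-early transcription factor, was nearly unread in the control. It had 6 and 5 reads in the *GFP* libraries and 16 and 49 reads in the *ADAR* libraries, or 0.792, 0.332, 1.95 and 4.98 CPM (log2 fold change 2.85 ± 0.55, edgeR adjusted p = 0.0172). ADAR sg2, which kept more *ADAR* mRNA, held more *EGR1* than ADAR sg1, by 0.78 on the log2 scale over both treatments (−0.78 ± 0.15 for sg1 minus sg2, edgeR adjusted p = 0.00159). Of 13 immediate-early genes tested, *EGR1* was the only one that passed. *ATF3* was the other with an unadjusted p under 0.05. *JUN* (log2 fold change 0.08) and *FOSL1* (0.10) had more reads and smaller differences, and *FOS* had 17, 17, 16 and 21 reads. The start of *EGR1* (RefSeq, GRCh38.p14, chr5:138465229-138465528, plus strand) is shown because this gene had the largest rise among the 5. Capitals mark CArG boxes, the motif of serum response factor, searched on both strands.
EGR1: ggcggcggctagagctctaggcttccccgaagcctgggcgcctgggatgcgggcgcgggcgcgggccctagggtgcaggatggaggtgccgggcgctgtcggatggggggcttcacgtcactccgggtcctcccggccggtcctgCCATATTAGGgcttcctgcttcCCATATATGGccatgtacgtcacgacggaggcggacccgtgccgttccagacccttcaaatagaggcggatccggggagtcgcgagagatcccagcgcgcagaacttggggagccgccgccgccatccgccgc
The window held 2 CArG boxes, which began 105 and 83 bases before the start and did not overlap. Of all windows in the table, 1.29% held at least 1.

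The mitochondrial ribosomal RNAs *MT-RNR1* (12S) and *MT-RNR2* (16S) rose as a pair. *MT-RNR1* had 380 CPM in GFP sg1, 594 in GFP sg2, 2212 in ADAR sg1 and 899 in ADAR sg2 (log2 fold change 1.67 ± 0.27, edgeR adjusted p = 0.00444). *MT-RNR2* had 3919, 4734, 11435 and 6118 CPM (1.02 ± 0.19, edgeR adjusted p = 0.0115). ADAR sg1 stood far above the other 3 libraries in both. The difference between ADAR sg1 and ADAR sg2 was 1.21 ± 0.12 for *MT-RNR1* (edgeR adjusted p = 5.88e-21) and 0.84 ± 0.12 for *MT-RNR2* (edgeR adjusted p = 7.35e-09), and *MT-RNR1* differed between the *GFP* sgRNAs as well (0.57 ± 0.12, edgeR adjusted p = 0.00922). Of the 13 mitochondrial protein-coding genes none passed by edgeR (0 at an unadjusted p under 0.05), their median log2 fold change was 0.07, and their range was −0.05 to 0.34. Against the mean of the *GFP* libraries their median log2 difference was 0.36 in ADAR sg1 and −0.22 in ADAR sg2, so that they too were higher in the library with more mitochondrial ribosomal RNA. The libraries were made after depletion of ribosomal RNA, and the 2 RNAs took 0.441%, 0.553%, 1.37% and 0.709% of gene reads in the 4 libraries. Whether the depletion differed between libraries was not tested.

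The 2 identifiers without a symbol moved by similar amounts. ENSG00000278189 had 8.71, 9.43, 17.3 and 26.9 CPM (1.28 ± 0.23, edgeR adjusted p = 0.00893), and ENSG00000275215 had 29.7, 26.6, 57.8 and 64.0 CPM (1.12 ± 0.24, edgeR adjusted p = 0.0392). No position or sequence is given for them here.

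The IFN-β libraries are not part of the contrast that chose the 19 genes, though they came from the same sgRNA lines and shared the estimate of dispersion. They separated the falls from the rises. Of the 14 genes that fell in vehicle, 13 also passed lower with IFN-β, where 6.19% of all genes tested passed lower, and *TFPI2* was the exception. Of the 5 that rose, *EGR1* passed higher, where 10.8% of all genes did, and the other 4 did not pass. No gene of the 19 passed in the opposite direction.

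Several of the falls had nearly the same size under both treatments. *NTS* had 2.72 and 5.65 CPM in the *GFP* libraries with IFN-β and 0.631 and 0.521 in the *ADAR* libraries, a log2 fold change of −2.91 ± 0.48 (edgeR adjusted p = 5.88e-05) beside −3.18 in vehicle. *SLFN11* had 6.94, 16.2, 2.84 and 0.469 CPM (−3.09 ± 0.50 beside −3.20, edgeR adjusted p = 3.97e-05). *SLC2A3* had 41.4, 48.9, 23.6 and 20.3 CPM (−1.05 ± 0.17 beside −1.09, edgeR adjusted p = 5.73e-05). In all 3 GFP sg2 was again the highest library. *FGA* fell by 1.59 and *FGG* by 1.10 on the log2 scale with IFN-β, *SLC7A7* by 1.67, *CP* by 1.14, *GPX2* by 0.98, *ROBO1* by 0.95, *MAPK4* by 0.89 and *WWC3* by 0.85. *CPLX2* had 439, 549.1, 249 and 233 CPM, and its log2 fold change was −1.04 ± 0.12 (edgeR adjusted p = 8.5e-08). Of the 13 falls, those of *CPLX2*, *FGA* and *SLC7A7* were larger with IFN-β than with vehicle, but none of these differences passed. The interaction of *CPLX2* came closest (−0.46 ± 0.16, edgeR adjusted p = 0.107). *ADAR* itself had 1219, 1193, 691 and 895 CPM with IFN-β, a log2 fold change of −0.60 ± 0.13 (edgeR adjusted p = 0.00148), and the interaction was 0.48 ± 0.19 (edgeR adjusted p = 0.145).

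The interaction, which is the log2 effect of *ADAR* KO with IFN-β minus that with vehicle, passed for 5 of the 19 genes (5.05% of all genes tested). It uses the vehicle libraries that chose the genes. *EGR1* reached 309 and 498 CPM in the *ADAR* libraries with IFN-β against 1.59 and 0.994 in the *GFP* libraries (8.34 ± 0.26 beside 2.85 in vehicle, interaction 5.49 ± 0.99, edgeR adjusted p = 0.000595). *TFPI2* had 103, 114, 105 and 121 CPM, a log2 fold change of 0.06 ± 0.11 (interaction 0.62 ± 0.16, edgeR adjusted p = 0.018). For *MT-RNR1* the *GFP* libraries were higher with IFN-β, at 1059 and 1488 CPM, than with vehicle, and the *ADAR* libraries were near their vehicle values, at 1992 and 912 (interaction −1.48 ± 0.37, edgeR adjusted p = 0.0155). With IFN-β, ENSG00000275215 had 32.7, 81.8, 46.5 and 31.0 CPM and ENSG00000278189 had 13.1, 21.0, 16.7 and 14.8. For both identifiers the *GFP* libraries were higher than with vehicle and the *ADAR* libraries were lower, ADAR sg2 more so than ADAR sg1.

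**Figure D3:**
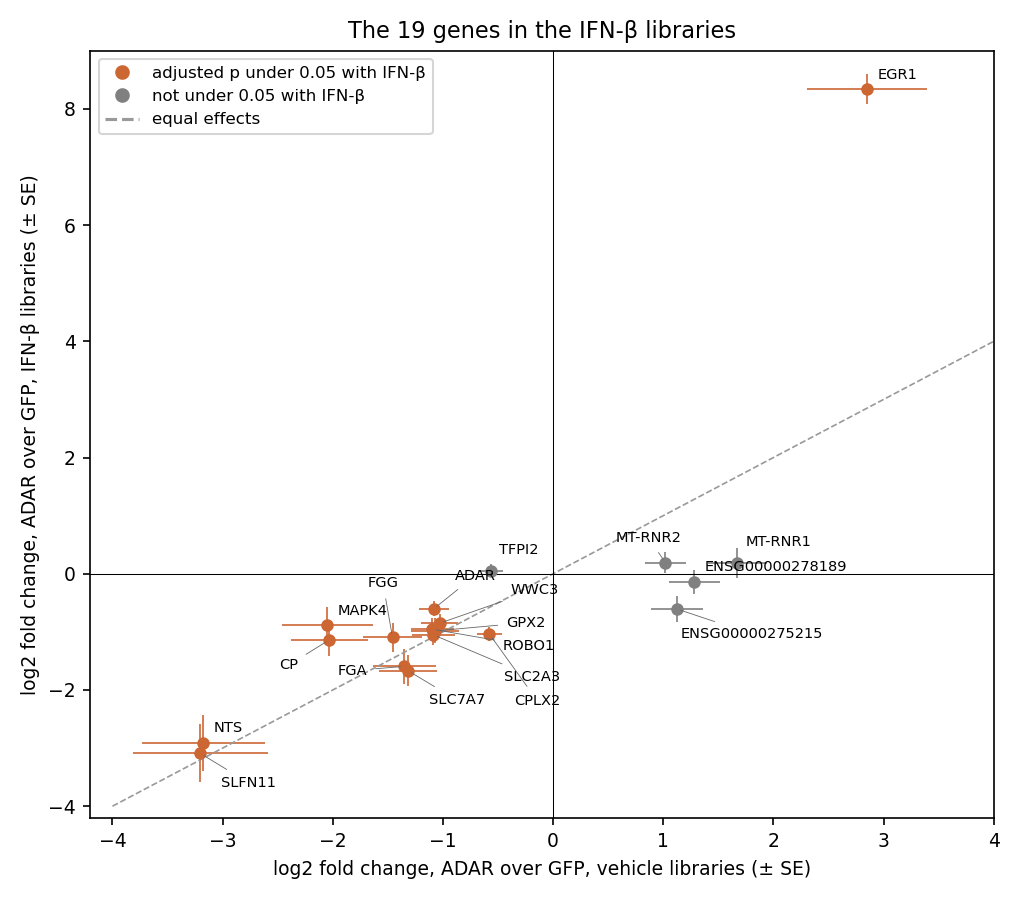
Log2 fold change of *ADAR* over *GFP* (± SE, edgeR) for the 19 genes, with the vehicle libraries on the x axis and the IFN-β libraries on the y axis. Orange points passed an adjusted p of 0.05 with IFN-β, and the dashed line marks equal effects. The 13 falls that recurred lie in the lower left, *EGR1* lies far above it, and the mitochondrial ribosomal RNAs, *TFPI2* and the identifiers without a symbol lie near 0 on the y axis or, for ENSG00000275215, at −0.60.

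Some of the genes that fell had next to no reads in the ADAR1-dependent lines. With all 20 libraries scaled together, the mean of the *GFP* libraries was 703 CPM for *CPLX2*, 16.1 for *FGA*, 14 for *FGG* and 4.87 for *NTS* in vehicle-treated A549, and no more than 0.357, 0.0485, 0.105 and 0.105 CPM in any of the 3 dependent lines. The second *GFP* library of NCI-H196 held only 62679 reads on genes, against 1026443 to 9156750 in the other 11 libraries of the dependent lines, and a value in it can rest on 1 read. Of the 19 genes, 6 had the same sign as in A549 in all 3 lines, with or without that library: the targeted *ADAR*, *MT-RNR1*, *MT-RNR2*, *EGR1*, *WWC3* and *GPX2*. The share of all genes with such a sign was not counted. In HCC366 the sign of both mitochondrial RNAs rests on the higher *ADAR* library. *MT-RNR1* had 227 and 7798 CPM there in the *ADAR* libraries (187 and 374 in *GFP*), and *MT-RNR2* had 2315 and 11713 (2588 and 2805 in *GFP*). In NCI-H1650 the *MT-RNR2* values of the targets overlapped (2011 and 2403 in *ADAR*, 1906 and 2200 in *GFP*). *WWC3* (−0.01) and *GPX2* (−0.04) were close to 0 in NCI-H196, and signs of genes with next to no reads carry no information. In a test of the mean effect in the dependent lines minus that in vehicle-treated A549, 2 of the 19 passed (0.953% of all genes tested), and both passed without that library too (0.728%), a fit added after the data had been seen. This test subtracts the vehicle effect that chose the 19 genes, so it is not independent of that choice. *SLFN11* had log2 fold changes of −0.47 in HCC366 (54.0 CPM in the *GFP* and 39.2 in the *ADAR* libraries), 0.87 in NCI-H1650 (1.02 and 1.88 CPM) and −0.03 in NCI-H196. Its difference from A549 was 3.33 ± 0.71 (edgeR adjusted p = 0.0146), and 3.31 ± 0.71 without the shallow library (edgeR adjusted p = 0.0184). *SLC7A7* had 2.46 CPM in the *GFP* and 8.76 in the *ADAR* libraries of HCC366, and 1.53 and 1.44 CPM in NCI-H1650. In NCI-H196 it had 15.9 CPM in the deeper *GFP* library, 1 read in the shallow one, and 30 CPM in the *ADAR* libraries. The difference from A549 was 2.16 ± 0.41 (edgeR adjusted p = 0.00574), and 2.14 ± 0.42 without the shallow library (edgeR adjusted p = 0.00875). A549 was vehicle-treated and the dependent lines were untreated, and without all of NCI-H196, GFP sg2 or ADAR sg2 none of the 19 passed. The methods give a set time from transduction to RNA isolation for the dependent lines but none for A549. Line, treatment and this time cannot be told apart in the comparison. *WWC3*, expressed in all 4 lines, had log2 fold changes of −0.01 (NCI-H196, −0.14 without the shallow library), −0.26 (NCI-H1650) and −0.47 (HCC366) beside −1.03 in A549, a difference that did not pass (0.78 ± 0.23, edgeR adjusted p = 0.0868).

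The pathways known to respond to unedited RNA showed small differences in vehicle. Of the 7 ATF4-regulated genes of the study, which it shows for other samples of this series so that their direction is not independent evidence, none passed by edgeR (3 at an unadjusted p under 0.05, where 4.16% of all genes tested were), 7 had a positive log2 fold change, and the median was 0.32. *ATF3*, a transcription factor of the stress response, had 41 and 47 reads in the *GFP* libraries and 63 and 83 in the *ADAR* libraries, or 5.41, 3.12, 7.68 and 8.44 CPM (1.02 ± 0.27, unadjusted p = 0.000751, edgeR adjusted p = 0.363). *GADD45A* (24.7, 21.4, 28.4 and 31.6 CPM, 0.40 ± 0.18) and *GADD45B* (37.6, 35.8, 45.1 and 46.5 CPM, 0.32 ± 0.14), growth-arrest genes, had an unadjusted p under 0.05 too, and in all 3 genes both knockout libraries lay above both controls. The libraries of the 2 targets did not overlap, in either direction, for 36.6% of all genes tested. *PPP1R15A*, which encodes the eIF2α phosphatase subunit GADD34, had 47.8, 50.2, 53.9 and 53.6 CPM (0.13 ± 0.13), and *DDIT3*, encoding CHOP, had 2.24, 3.32, 2.93 and 4.58 (0.39 ± 0.31). *TRIB3* (0.03 ± 0.11) and *ASNS* (0.07 ± 0.12) were close to 0, and their sign turned when a library was left out. Of 18 other ATF4 targets none passed by edgeR (1 at an unadjusted p under 0.05, *DDIT4*, with 0.30), with a median of 0.04, and of 14 endoplasmic reticulum chaperones none passed (0 at an unadjusted p under 0.05), with a median of −0.05. DESeq2 called no member of any list described here other than *SLC2A3*.

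Interferon-stimulated genes gave a similar result. None of the 27 genes of the interferon signature used in the study passed by edgeR (2 at an unadjusted p under 0.05, *ISG15* and *PARP10*). Of the 23 with more than 3 reads in a group, 18 had a positive and 5 a negative log2 fold change, with a median of 0.16. *ISG15*, a ubiquitin-like modifier, had 4.35, 4.91, 7.80 and 8.34 CPM (0.78 ± 0.24, unadjusted p = 0.00258, edgeR adjusted p = 0.675). *PARP10*, a mono-ADP-ribosyltransferase, had 3 and 14 reads in the *GFP* libraries and 14 and 19 in the *ADAR* libraries, or 0.396, 0.930, 1.71 and 1.93 CPM (1.28 ± 0.46, unadjusted p = 0.0097, edgeR adjusted p = 0.994). Outside this signature, *OAS1*, which makes the second messenger that activates RNase L, had 14.8, 18.2, 21.7 and 24.8 CPM (0.48 ± 0.13, unadjusted p = 0.00124, edgeR adjusted p = 0.493). The control and knockout libraries did not overlap for any of the 3, and none passed over all genes. In the GFP libraries with IFN-β they stood at 546 and 826 CPM (*ISG15*), 106 and 153 CPM (*PARP10*) and 600 and 596 CPM (*OAS1*), far above the vehicle *ADAR* libraries. *IFNB1* had 0 reads in all 4 vehicle libraries, against 1.79 and 3.23 CPM in the *ADAR* libraries with IFN-β.

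The sensors showed no common direction. Of 17 genes of double-stranded RNA sensing tested, none passed by edgeR (1 at an unadjusted p under 0.05, *OAS1*) and the median was −0.01 over the 16 with more than 3 reads in a group. *EIF2AK2*, encoding PKR, had 106, 106, 105 and 102 CPM (−0.04 ± 0.11). *RIGI*, encoding RIG-I, had 16.8, 18, 17.6 and 21.0 CPM (0.15 ± 0.14), and *IFIH1*, encoding MDA5, had 11, 15, 13 and 6 reads (−0.13 ± 0.42). The edgeR adjusted p of each was 0.998. At this depth the standard error for *EIF2AK2* was small and that for *IFIH1* was large. A change in *IFIH1* well above its error could also have been missed, since *ISG15* did not pass at 0.78 ± 0.24.

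**Figure D4:**
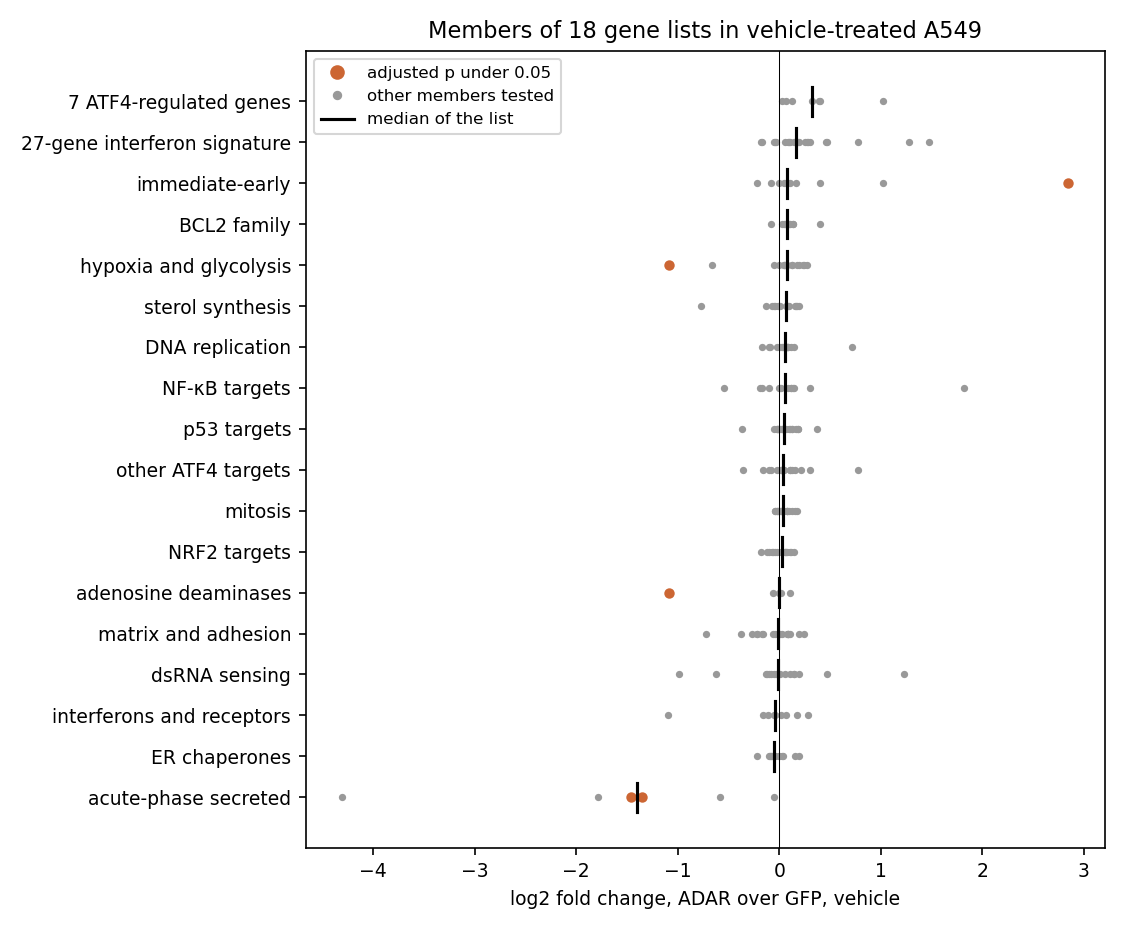
Log2 fold change of *ADAR* over *GFP* in vehicle for the tested members of 18 gene lists that had more than 3 reads in at least 1 group. Orange points passed an adjusted p of 0.05, grey points did not, and the black bar is the median of a list. The medians lie between −0.05 and 0.32 except for the acute-phase genes at −1.40, and the orange points are *FGA*, *FGG*, *SLC2A3*, *ADAR* and *EGR1*.

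The remaining lists stayed near 0. No gene passed among 18 p53 targets (median 0.05), 14 NF-κB targets (0.06), 17 genes of sterol synthesis (0.07), 16 of mitosis (0.03), 16 of DNA replication (0.06), 20 of matrix and adhesion (−0.01), 10 of the BCL2 family (0.08) and 13 interferons, receptors and their signalling proteins. The median of the last list was −0.04 over the 9 genes with more than 3 reads in a group. At an unadjusted p under 0.05 there were 4 genes of matrix and adhesion (1 higher, 3 lower), 0 of mitosis, 0 of the interferon list and 1 in each of the others. The members with the smallest unadjusted p in their list included the DNA repair gene *XPC* (0.37), the chemokine *CCL2* (−0.55), the mitotic kinase *CDK1* (0.18), the cyclin *CCNE2* (0.72), *CDH1*, encoding E-cadherin (−0.72), the BH3-only *PMAIP1* (0.40) and the interferon lambda receptor *IFNLR1* (−1.09). Among these, *CDH1* came closest to the threshold, with 28.6 and 30.5 CPM in the *GFP* libraries and 13.7 and 22 in the *ADAR* libraries (−0.72 ± 0.18, unadjusted p = 0.00039, edgeR adjusted p = 0.258). With IFN-β, *CDH1* had 44.5, 50.2, 24.3 and 32.0 CPM and passed (−0.74 ± 0.16, edgeR adjusted p = 0.0018).

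Genes near *ADAR* were examined because cutting by Cas9 can remove a segment next to its target. Of 58 genes tested within 1 Mb of *ADAR*, none passed (4 were lower and 0 higher at an unadjusted p under 0.05), and the median log2 fold change was 0.01. The 4 lower genes, *ZBTB7B* (−0.31), *EFNA1* (−0.46), *THBS3* (−0.78) and *HCN3* (−0.76), all lie on the telomere side. Of the 58 genes, 31 had a positive and 27 a negative log2 fold change. The nearest gene tested on either side, *PMVK* towards the telomere (26.1, 26.4, 27.2 and 30 CPM, 0.13 ± 0.18) and *CHRNB2* towards the centromere (4.09, 1.79, 2.44 and 3.05 CPM, 0.01 ± 0.42), did not pass. On the centromere side 145 genes of the long arm and on the telomere side 507 genes had medians of 0.01 each, and none passed by edgeR. At an unadjusted p under 0.05, 4 were higher and 0 lower on the centromere side. On the telomere side 9 were higher and 20 lower, and over all genes tested 278 were higher and 364 lower. Whether a segment was lost was not tested.

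**Figure D5:**
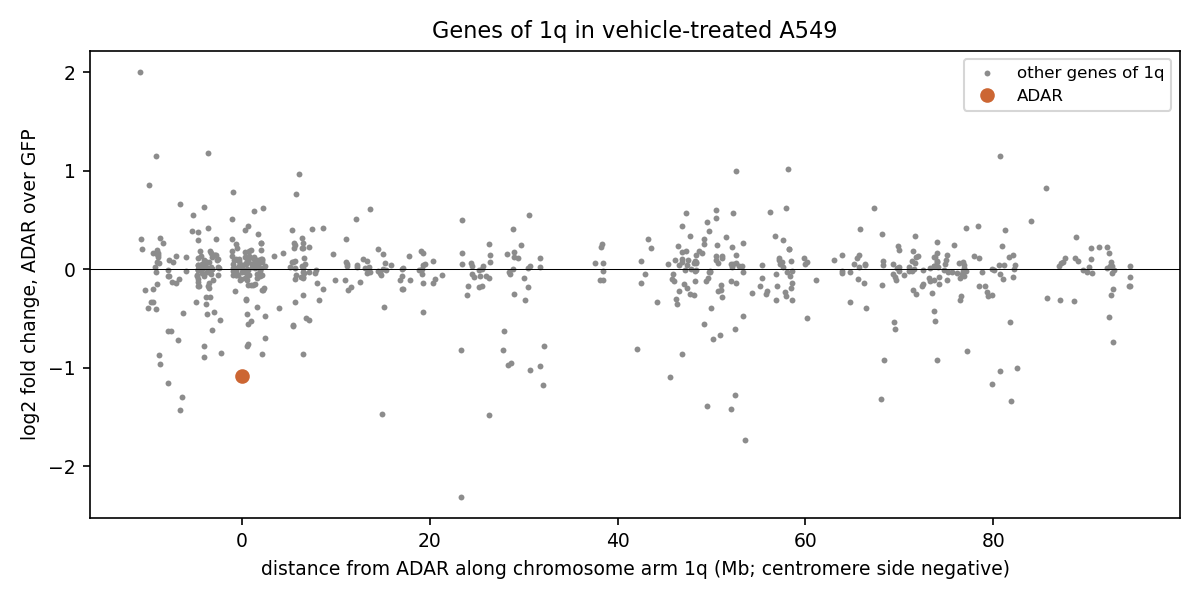
Log2 fold change of *ADAR* over *GFP* in vehicle for genes of the long arm of chromosome 1, by distance from *ADAR* in Mb, with negative distances towards the centromere. The orange point is *ADAR*. *ADAR* lies at −1.08, and genes on either side scatter around 0.

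The knockout lines differed from each other in a few genes. Over the vehicle and IFN-β libraries, 10 genes passed between ADAR sg1 and ADAR sg2 (0.0647% of genes tested). The vehicle and IFN-β libraries of a line served as its replicates here. These p values do not measure the spread between populations made with the same sgRNA. The 10 genes were not tested in further populations. The 10 genes include 5 of the 19: *ADAR*, *MT-RNR1*, *MT-RNR2*, *EGR1* and *SLFN11*. Of the 14 genes that fell, 10 were lower in ADAR sg2 than in ADAR sg1 in vehicle. *ADAR* itself, higher in ADAR sg2, was not among these 10. The share of all genes tested that were lower in ADAR sg2 was not counted. *CXCL8*, encoding interleukin-8, was a member of the NF-κB list that passed here and not between targets, with 3.69, 6.77, 3.78 and 5.90 CPM in vehicle and 95.0 and 180 CPM in the *ADAR* libraries with IFN-β (−0.86 ± 0.17 for sg1 minus sg2, edgeR adjusted p = 0.00176).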

How the data were processed

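According to the methods, the authors removed ribosomal RNA, made strand-marking paired-end libraries, used STAR for alignment (hg19) and HTSeq for counts. Versions, the annotation release and the strand setting are not given in the sources used here. The deposited files hold the raw read count per Ensembl gene identifier for each library (58233 identifiers, of which 55727 matched a symbol and a GRCh37 position in GENCODE release 44). The summary lines of HTSeq were left out of library sizes; in the vehicle libraries 44.7% to 50.8% of the tallied reads were not uniquely aligned and 18.5% to 20.2% fell on no feature. Samples were grouped by the target and treatment in their labels.

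The 8 A549 libraries were fitted together in 4 groups with edgeR 4.0.16 in R 4.3.3 (limma 3.58.1 called by edgeR). Low counts were filtered by filterByExpr at its minimum count of 10 (15449 genes kept), libraries were scaled by TMM, and *ADAR* was compared with *GFP* by the quasi-likelihood F-test, with Benjamini-Hochberg adjustment over all genes and a threshold of 0.05. CPM are these scaled counts. Log2 fold changes used a prior count of 0.125, and the standard error is the fold change divided by the square root of F. Further contrasts were IFN-β libraries, the interaction, the *ADAR* sgRNAs against each other (with terms for sgRNA line and treatment within target), and, in a fit of all 20 libraries by condition, the mean effect in the 3 dependent lines minus that in vehicle-treated A549. The procedure was tested on simulated data. The genes named are *ADAR*, all genes past the threshold in vehicle, the 7 ATF4-regulated genes, *EIF2AK2*, *IFIH1*, *RIGI*, *ISG15*, *IFNB1*, *ADARB1*, the member of each list with the smallest unadjusted p (for 1 list it is not reported here), and the genes nearest to *ADAR*; other genes named were chosen after their values were seen. The comparison, the members and the lists were chosen with earlier results of these data known. Lists are described by counts and medians without a set test. Promoter windows came from RefSeq (GRCh38.p14); protein and sgRNA sequences were not used here. Alternatives were DESeq2 1.42.0, its size factors in edgeR, other filters on low counts, other sets of libraries, a replicate block, a prior count of 2 for the fold changes and leaving out each library.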

Additional observations from a re-analysis of the deposited data

Results flagged for a closer look

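Besides the genes of the vehicle comparison that are described above, some genes named in it had an effect of *ADAR* KO that differed between vehicle and IFN-β in A549, by the interaction term of edgeR's quasi-likelihood test (adjusted over all genes). It passed for 16 of the 46 named genes, against 5.05% of all genes tested. The named genes were chosen in part by values in these libraries. In log2 units, the effect with IFN-β minus that with vehicle was 5.49 ± 0.99 for *EGR1* (edgeR adjusted p = 0.000595), −1.48 ± 0.37 for *MT-RNR1* (0.0155), 0.62 ± 0.16 for *TFPI2* (0.018), −1.42 ± 0.31 for ENSG00000278189 (0.00483) and −1.73 ± 0.32 for ENSG00000275215 (0.000905). All 7 ATF4-regulated genes had a larger effect with IFN-β: *ATF3* by 3.55, *GADD45A* by 2.45 and *GADD45B* by 1.97, *PPP1R15A* by 2.86, *DDIT3* by 2.74, *ASNS* by 0.64 and *TRIB3* by 0.73. The same was true of *PMAIP1* (1.04) and of *CCL2* (1.22), which had a log2 fold change of −0.55 in vehicle and 0.67 with IFN-β. The interferon-stimulated *OAS1* (−0.65) and *ISG15* (−1.03) went the other way: their log2 fold changes were 0.48 and 0.78 in vehicle and −0.18 and −0.25 with IFN-β, where the *GFP* libraries already had high levels.

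The mean effect in the dependent lines also differed from that in vehicle-treated A549 (20-library fit, edgeR adjusted p under 0.05) for 8 of the 46 named genes, against 0.953% of all genes tested. This difference uses the vehicle libraries that chose *SLFN11* and *SLC7A7*, so it is not independent of that choice. The study shows the ATF4-regulated genes as raised in the dependent lines, so their direction is not independent evidence either. The difference was positive for *SLFN11* (3.33), *SLC7A7* (2.16), *PPP1R15A* (2.02), *GADD45A* (1.76), *TRIB3* (1.71), *ATF3* (1.53) and *GADD45B* (1.37). It was negative for *CDK1*, a kinase of the cell cycle (−1.01 ± 0.26; edgeR adjusted p = 0.0461), whose log2 fold change was 0.18 in vehicle-treated A549 and between −1.36 and −0.49 in the dependent lines. Without the second *GFP* library of NCI-H196, which held 62679 reads, all 8 differences still passed, the weakest being that of *CDK1* (edgeR adjusted p = 0.0482). No group held 4 or more libraries, so single libraries were not tested as outliers.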

How the results depend on the processing

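Of the 19 genes past the threshold in vehicle (5 higher, 14 lower), DESeq2 called 4 (1 higher, 3 lower), an edgeR fit of all 20 libraries 5 (0 higher, 5 lower), that fit without its shallowest library, added after the data had been seen, also 5 (0 higher, 5 lower), and edgeR without a filter on low counts 30 (11 higher, 19 lower), which include the 19. DESeq2 size factors, a minimum of 1 CPM in 2 libraries and the 4 vehicle libraries alone each gave 19 genes, 19, 19 and 16 of them shared; the split in the last was 6 higher and 13 lower. Leaving out a library gave 3 to 17 genes (1 to 3 higher, 2 to 15 lower), and the log2 fold change of *ADAR* was −1.44 to −0.80. The log2 fold change of *ADAR* in DESeq2 was −1.08 and no longer passed. Of the 14 genes that passed the same way with IFN-β, leaving out a library kept 13 to 14. The interaction passed for 5 genes, for 3 with DESeq2, 8 without the filter, 2 in the fit of all 20 libraries with or without the shallowest and 4 to 5 when a library was left out. The 2 differences from the dependent lines became 1 with DESeq2, 0 without NCI-H196 and 0 to 3 when a library was left out. Between the *ADAR* sgRNAs, 10 genes passed, 3 with DESeq2, 18 with the *ADAR* libraries alone and 1 to 19 when a library was left out. The cause of these differences was not tested.

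The sgRNA numbers name different sgRNAs in the 2 targets. The deviations of same-numbered vehicle libraries from their group means correlated at −0.0172 across genes, so the numbers were not taken as pairs. A fit with a replicate block by number called the same 19 genes. With the 4 vehicle libraries alone and the block, an alternative added after the data had been seen, 52 genes passed (18 higher, 34 lower), the 19 among them.

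Some named genes with small differences changed sign. *CHRNB2* had −0.035 with DESeq2 and −0.0045 with the replicate block. When each library was left out in turn, the log2 fold change ranged from −0.56 to 0.62 for *CHRNB2*, −0.063 to 0.12 for *TRIB3*, −0.071 to 0.20 for *ASNS*, −0.91 to 0.46 for *IFIH1* and −0.28 to 0.13 for *ADARB1*. Depth limits genes with under about 10 reads in each library of a group, such as *NTS* and *SERPINA1* in the *ADAR* libraries and *EGR1* in the *GFP* libraries. With 2 sgRNAs per target, small changes cannot be told from differences between transduced populations.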

Other observations

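The other genes that differed between ADAR sg1 and ADAR sg2 over the vehicle and IFN-β libraries, and not between targets in vehicle, were *NID2*, *EPHB6*, *TMPRSS15* and ENSG00000269028. *NID2*, encoding the basement membrane protein nidogen 2, had 120 and 119 CPM in the vehicle *GFP* libraries, 123 in ADAR sg1 and 81.1 in ADAR sg2, and again 137 and 95.4 CPM in the *ADAR* libraries with IFN-β (sg1 minus sg2 0.56 ± 0.12 on the log2 scale; edgeR adjusted p = 0.00945). *EPHB6*, an ephrin receptor without kinase activity, had 4.88, 4.71, 5.12 and 1.53 CPM in vehicle (1.65 ± 0.37; edgeR adjusted p = 0.0178). For both genes ADAR sg2 was the low library and the other 3 were alike. *TMPRSS15*, encoding enteropeptidase, had 15.8, 17.6, 19 and 27.6 CPM, with ADAR sg2 the high library (−0.85 ± 0.19; edgeR adjusted p = 0.0178). These genes were chosen after their values were seen.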
